A study of Mus musculus with 5 samples.

Results

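Moxd1, Inmt, Car3 and Selenbp2 are 4 mouse genes, chosen by their measured CPM, since they were among the transcripts that fell steeply in hepatocytes once most of the liver had been removed by surgery (partial hepatectomy, PHx). They are 4 of the 31053 genes in the deposited counts. Single liver cells from C57BL/6J mice had been sequenced in droplets (10x v3 chemistry), in 5 libraries with 1 per group. The groups were untreated mice at postnatal day 14 (P14), an adult control without hepatectomy, and adults 24 h, 48 h and 96 h after PHx. The shared protocol gives 8 weeks as the age of all 4 adult groups. Cells were released by perfusion and passed through a kit that removes dead cells. Sex and animal numbers are not in the labels, and 1 protocol field lists the adult control among the operated mice, whereas its title and source call it a control. With 1 library per group nothing here could be tested between groups. The intervals cover counting error at 95% confidence, exact Poisson for levels and exact binomial for shares, and no spread between animals. Where no cell was counted, the limit that a count of 0 allows (3 counts of the total) is given in place of an interval.

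Hepatocytes are the cells in which these genes were read. A barcode counted as one when it had at least 5000 unique molecular identifiers (UMIs, each marking 1 captured transcript), 10% to 30% mitochondrial UMIs and at least 1% of its UMIs from Alb, Apoa1 and Ttr, which encode abundant plasma proteins. The P14 library gave 2106 such cells and the adult control 925. From the 24 h, 48 h and 96 h libraries came 1170, 719 and 771. All 8 hepatocyte markers had UMIs in each library, but Alb, Apoa1 and Ttr are among them and were part of the rule. Detection alone does not set these cells apart. All markers listed for endothelial cells, T or NK cells, B cells and neutrophils also had UMIs in them. Libraries held 80927744 to 136110607 UMIs, and the median hepatocyte 18527 (adult control) to 38922.5 (P14). Only 3 hepatocyte barcodes were shared between libraries, over 10 pairs. The adult control carries another lane code in the sample descriptions than the other 4 libraries, so that a batch behind the code and the group cannot be told apart. Xist stood at 840 CPM (UMIs of a gene per 1000000 non-mitochondrial UMIs) in P14 and at most 0.0744 in the adults. Ddx3y, Uty, Kdm5d and Eif2s3y, which lie on the Y chromosome, gave 5.66 to 140 CPM in every adult library and at most 0.0155 in P14. Age and sex therefore cannot be told apart in P14, whereas the adult libraries all carried Y-linked transcripts.

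After PHx the hepatocytes that remain leave quiescence and divide until the mass of the organ is restored, while many of their metabolic genes are turned down. The 4 genes belong to the metabolic side. Moxd1 encodes a copper-dependent monooxygenase of the endoplasmic reticulum, related to dopamine beta-hydroxylase, whose substrate is not established. Inmt encodes indolethylamine N-methyltransferase, which methylates tryptamine and other amines with S-adenosylmethionine. Car3 is a cytosolic carbonic anhydrase of low catalytic activity that is abundant in liver, fat and muscle. Selenbp2 encodes a cytosolic selenium-binding protein of the liver, a close copy of Selenbp1, a methanethiol oxidase. Liver expression of many such genes depends on growth hormone, sex and the position of the cell between the portal tract and the central vein.

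The 4 genes fell on different schedules, and only Moxd1 was still missing at 96 h. In CPM of non-mitochondrial UMIs summed over hepatocytes, Moxd1 stood at 115 in the adult control, then 55.8 (24 h), 0.720 (48 h) and 0 (96 h). Inmt went from 173 to 6.66, 47.1 and 277 over the same libraries. Car3 went from 2589 to 194, 282 and 2573. Selenbp2 went from 1259 to 150, 161 and 566. The description of the set as lost genes thus holds to the last time point for Moxd1 alone. Car3 at 96 h was at the control level, Inmt was above it and Selenbp2 was below it, though above its 24 h and 48 h levels. Between neighbouring levels, the counting intervals overlapped for Car3 in the control and at 96 h, for Selenbp2 at 24 h and 48 h, for Inmt in P14 and at 96 h, and for Moxd1 in P14 and at 96 h, both at 0. For Selenbp2 the interval of the ratio itself left out no change, at 1.07-fold higher at 48 h than at 24 h (1.02 to 1.13).

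**Figure D1:**
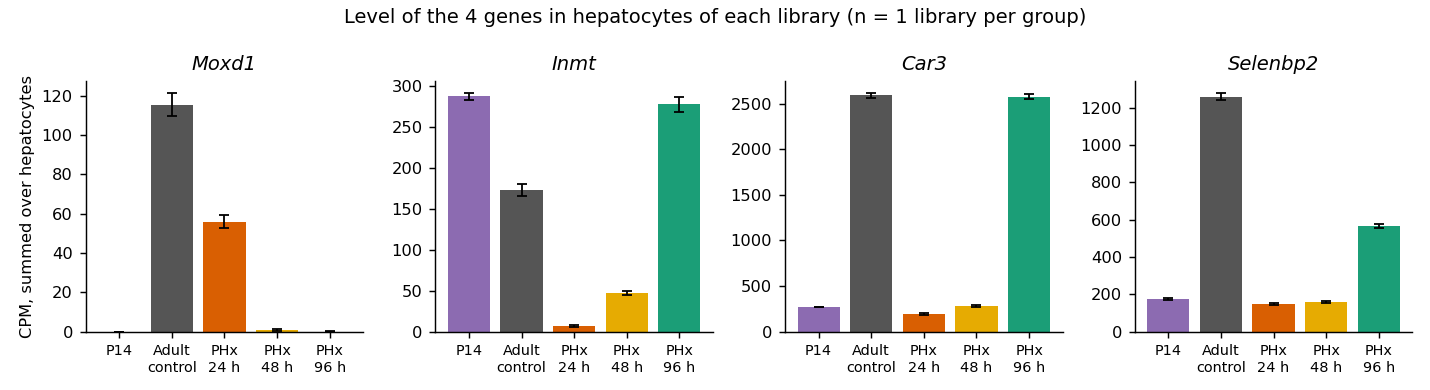
Bars give the level (CPM of non-mitochondrial UMIs, linear axis from 0) of each gene summed over the hepatocytes of 1 library, with exact Poisson 95% intervals of the count. Moxd1 is near 0 at 48 h and 96 h, Inmt is lowest at 24 h, and Car3 and Selenbp2 are low at both 24 h and 48 h.

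In hepatocytes Moxd1 was the latest to fall and the gene whose absence was most complete. Its 1537 UMIs in control hepatocytes became 1088 at 24 h, 15 at 48 h and 0 at 96 h. The level was 2.07-fold lower than the control at 24 h (interval 1.91 to 2.24) and 160-fold lower at 48 h (96.9 to 287). The log2 ratio at 24 h, -1.04, was -1.67 in barcodes under 10% mitochondrial UMIs and -0.33 with a marker share of at least 5%, which left 6 cells at 24 h. In the barcodes under 10% the median of all genes was -0.69, against -0.00086 in the reported setting. At 96 h the 0 count, set at a floor of 3 UMIs over the library's hepatocytes, gave a level at least 517-fold lower. Between 24 h and 48 h it dropped by a further 77.4-fold (46.7 to 139). The 15 UMIs at 48 h lay in 11 cells, with at most 2 in a cell. Over all barcodes of a library, cells and empty droplets together, Moxd1 had 10254 UMIs in the adult control, then 2449 (24 h), 22 (48 h) and 2 (96 h), and 0 in P14. These UMIs are not scaled to the library totals of 132079506, 107210500, 80927744, 122635082 and 136110607. In empty droplets alone Moxd1 was at 90.6 CPM in the control, then 17.0 (24 h), 0.177 (48 h) and 0.0323 (96 h). The fall was thus also present outside the droplets chosen as hepatocytes. At 24 h it was deeper in empty droplets than in hepatocytes, and why was not tested.

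Moxd1 lies on chromosome 10 (GRCm38, chr10:24223517-24302790, plus strand; ENSMUSG00000020000, protein-coding). Its upstream sequence is shown because this gene had the most complete fall of the 4. Among the motifs searched on both strands, TTCNNNGAA, the palindrome that STAT factors bind, matched within 250 bases before the RefSeq start (GRCm38.p6, chr10:24223267-24223516, plus strand). The match, in capitals, lies 150 to 142 bases before that start, and 7.02% of the 32851 mouse promoters in the same table hold such a match. The G and C content of the 250 bases was 58.4%, against a median of 52.4% over all promoters.
Moxd1: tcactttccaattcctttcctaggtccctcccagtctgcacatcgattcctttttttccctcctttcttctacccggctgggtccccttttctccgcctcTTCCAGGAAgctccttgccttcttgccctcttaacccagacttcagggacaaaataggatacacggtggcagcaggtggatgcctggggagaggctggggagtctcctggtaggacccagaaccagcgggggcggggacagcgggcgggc

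Inmt had the lowest log2 ratio of the 4 at 24 h and came back first. Its hepatocyte UMIs were 2303 in the control, then 130 (24 h), 982 (48 h) and 3725 (96 h). The level was 26.0-fold lower at 24 h (21.7 to 31.2) and 3.67-fold lower at 48 h (3.40 to 3.96). Over the alternative settings its log2 ratio at 24 h ran from -7.58 to -2.73, around the reported -4.50. It was above that of Car3 with a pseudocount of 10 CPM (-3.46 and -3.67), and above those of Car3 and Selenbp2 in barcodes of 10% to 15% mitochondrial UMIs (-2.73, -3.14 and -3.40). At 96 h Inmt was 1.60-fold higher than the control (1.52 to 1.69). Its log2 ratio there, 0.68, was 0.12 in the 684 barcodes of 96 h under 10% mitochondrial UMIs. The median of all genes was -0.45 in those barcodes, against 0.04 in the reported setting. The Inmt ratio reached 1.02 in barcodes of 10% to 15%, of which the control had 7 and 96 h had 17. The size of the rise thus varied with the mitochondrial limits, and under 10% the median of all genes moved down too. The rise from 24 h to 48 h was 7.08-fold (5.89 to 8.56) and that from 48 h to 96 h was 5.88-fold (5.48 to 6.31), while Moxd1 was disappearing. Inmt lies on chromosome 6 (GRCm38, chr6:55170626-55175043, minus strand; ENSMUSG00000003477, protein-coding). In its 250 upstream bases TATAAA, the core-promoter TATA sequence, occurred at 80 and at 69 bases before the RefSeq start, and 12.4% of promoters hold this sequence. Both matches lie in the 197 of these bases that are upstream of the gene interval given above, and the other bases lie inside it. TTANGTAA, which PAR bZIP factors bind, and GTTAAT, part of the site of HNF1, matched in none of the 3 members in the table, and in 2.06% and 6.43% of all promoters.

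Car3 fell to a low level by 24 h, stayed low at 48 h and was back by 96 h. Its hepatocyte UMIs were 34471 in the control, then 3789 (24 h), 5872 (48 h) and 34575 (96 h). The level was 13.3-fold lower at 24 h (12.9 to 13.8) and 9.18-fold lower at 48 h (8.93 to 9.44). Over the alternative settings its log2 ratio, reported as -3.73 and -3.19, ran from -4.76 to -3.14 at 24 h and from -4.16 to -2.38 at 48 h. At 96 h the log2 ratio without pseudocount was -0.01, with a counting interval of -0.03 to 0.01. The rise from 48 h to 96 h was 9.13-fold (8.88 to 9.39). Car3 lies on chromosome 3 (GRCm38, chr3:14863512-14872523, plus strand; ENSMUSG00000027559, protein-coding).

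Selenbp2 fell as early as Car3 but regained less. Its hepatocyte UMIs were 16761 in the control, then 2922 (24 h), 3345 (48 h) and 7609 (96 h). The level was 8.41-fold lower at 24 h (8.08 to 8.75), 7.84-fold lower at 48 h (7.55 to 8.14) and 2.22-fold lower at 96 h (2.16 to 2.28). Over the alternative settings its log2 ratio ran from -3.62 to -2.32 at 24 h, from -4.82 to -2.86 at 48 h and from -1.62 to -0.81 at 96 h. From 48 h to 96 h it rose 3.53-fold (3.39 to 3.67).

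The near copy Selenbp1 moved less. Selenbp1 stood at 137 CPM in the control, then 73.8 (24 h), 64.2 (48 h) and 148 (96 h), so it was 1.86-fold lower (1.73 to 1.99), 2.14-fold lower (1.99 to 2.29) and 1.08-fold higher (1.01 to 1.15). Both genes lie on the plus strand of chromosome 3, 228643 bases apart (GRCm38, Selenbp2 chr3:94693556-94704413, ENSMUSG00000068877; Selenbp1 chr3:94933056-94944758, ENSMUSG00000068874). Their longest protein-coding transcripts were 98.1% identical over their whole length and 95.5% over the last 500 bases, where this 3' chemistry reads. In those 500 bases, 88 of the 411 windows of 90 bases occurred unchanged in the other gene. How the counting assigned reads that fit both genes is not given in the sources used here, so the levels of both are uncertain to that extent, and a fall of Selenbp2 can carry over into Selenbp1. The upstream sequences are shown because the pair differed in response while being 88.5% identical over 235 aligned positions. Capitals mark bases that differ or are missing in the other sequence (RefSeq, GRCm38.p6, plus strand; chr3:94693323-94693555 and chr3:94932833-94933055).
Selenbp2: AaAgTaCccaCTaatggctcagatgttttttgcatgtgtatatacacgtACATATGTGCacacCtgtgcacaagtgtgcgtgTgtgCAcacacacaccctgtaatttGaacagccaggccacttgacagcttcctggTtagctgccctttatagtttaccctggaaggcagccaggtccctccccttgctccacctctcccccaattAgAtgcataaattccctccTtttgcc
Selenbp1: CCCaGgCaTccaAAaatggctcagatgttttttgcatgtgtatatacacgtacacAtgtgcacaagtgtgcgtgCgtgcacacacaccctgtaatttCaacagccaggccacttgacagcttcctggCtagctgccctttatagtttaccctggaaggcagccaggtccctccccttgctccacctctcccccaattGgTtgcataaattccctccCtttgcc

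Of the 4 genes, 3 were at least 4-fold lower than the control at 24 h, on the scale log2((CPM + 1)/(CPM + 1)), where 1.05% of the 9028 genes with at least 5 CPM in either library were. The count was again 3 for 48 h (1.25% of 9035 genes) and 1 for 96 h (0.427% of 8890 genes). These contrasts chose the genes, so the counts are a description. The gene outside the count was Moxd1 at 24 h and Inmt at 48 h, and Moxd1 was the gene left at 96 h. The median log2 ratio of the 4 was -3.40, -3.08 and -0.58 at the 3 times, and that of all genes was -0.00086, -0.08 and 0.04. Counted from the lowest log2 ratio, Inmt was in place 2 at 24 h and Moxd1 in place 1 at both 48 h and 96 h. At 24 h Car3 was in place 8, Selenbp2 in place 15 and Moxd1 in place 616. At 96 h Selenbp2 was in place 114, Car3 in place 4017 and Inmt in place 8034.

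In P14 hepatocytes the levels were 0 CPM for Moxd1, 287 for Inmt, 270 for Car3 and 175 for Selenbp2. Moxd1 was at least 2484-fold lower than in the adult control, Car3 9.59-fold lower (9.42 to 9.77) and Selenbp2 7.19-fold lower (7.02 to 7.36), whereas Inmt was 1.66-fold higher (1.59 to 1.73). In barcodes under 10% mitochondrial UMIs Inmt was instead lower in P14 than in the control, with a log2 ratio of -0.42. Thus 3 of the 4 were at least 4-fold lower, beside 3.72% of 9011 genes, with a median log2 ratio of -3.05 against -0.26 for all genes. The comparison shares its control library with the others, and the 4 genes were selected partly for their level there. Selenbp1 was 1.38-fold higher in P14 than in the control (1.31 to 1.45). P14 and the 96 h library had like levels of Inmt (287 and 277 CPM) and both lacked Moxd1, while Car3 was 9.53-fold (9.36 to 9.71) and Selenbp2 3.23-fold (3.14 to 3.33) higher at 96 h.

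Whether all cells or only some lost the transcripts was read from single cells, each thinned at random to 5000 UMIs so that depth was equal. For Car3 the whole distribution moved. Control hepatocytes had a median of 9 Car3 UMIs, and 52.4% of them had 9 or more. None of the 1170 cells at 24 h reached 9, which allows a share of up to 0.256%, and 2 of 719 did at 48 h. At 96 h the share was 50.8% (47.3% to 54.4%). In P14 it was 3 of 2106 cells. Selenbp2 behaved alike at the early times. Its control median was 5 UMIs, which 53.2% of control cells reached, as did 3 cells at 24 h, 6 at 48 h and 13 in P14. At 96 h 9.47% (7.50% to 11.8%) of cells reached it, with 18.2% of cells at 0 UMIs and 5.84% over 5. An equal level in every cell would leave 11.9% at 0. In the control an equal level would leave 0.70% of cells at 0 Selenbp2 UMIs, and 1.62% were. An excess of cells at 0 was thus present before PHx too, and whether the return was uneven was not tested.

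**Figure D2:**
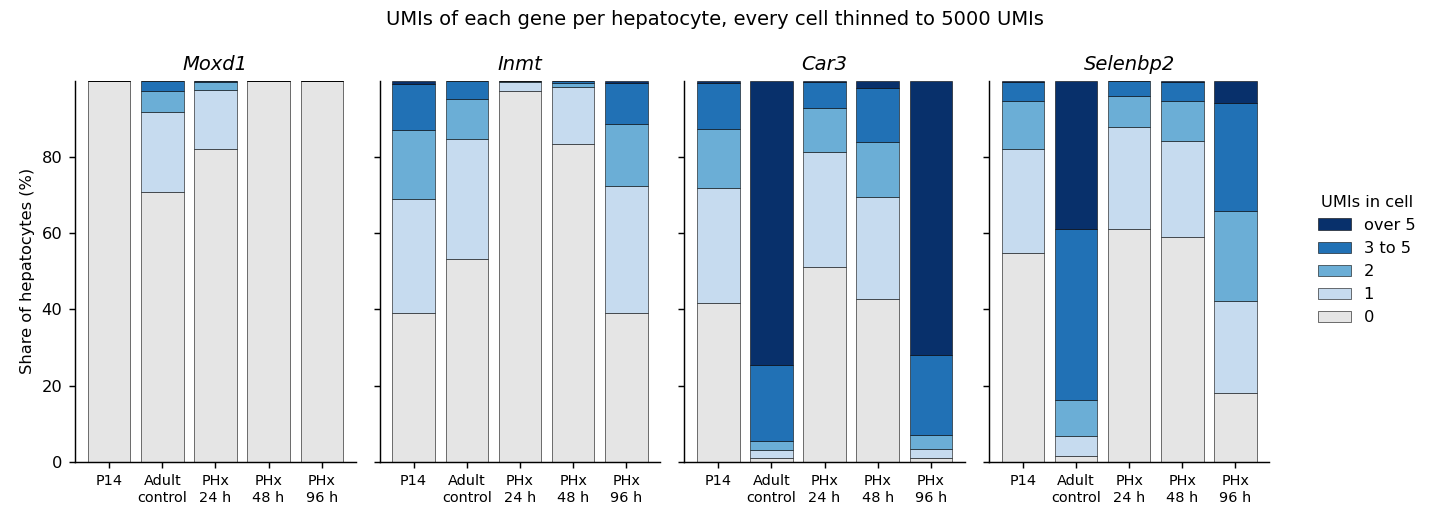
Stacked bars give the share of hepatocytes (%) with 0, 1, 2, 3 to 5 or over 5 UMIs of each gene in each library, after every cell was thinned to 5000 UMIs. The cells with over 5 Car3 UMIs, 74.6% of the control, are nearly absent at 24 h (0.256%) and 48 h (1.81%) and make up 72.0% at 96 h.

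Moxd1 and Inmt were too low for a cell's own level to be read, so the share of cells with a UMI was used. Moxd1 was detected in 29.2% of control cells at 5000 UMIs (26.3% to 32.2%), in 17.9% at 24 h (15.7% to 20.2%) and in none at 48 h, at 96 h or in P14. Those zeros allow shares of up to 0.417%, 0.389% and 0.142%, as limits on cells with a UMI at this depth and not on cells that express the gene. Without thinning the shares were 56.4% in the control, 45.4% at 24 h and 1.53% at 48 h (11 of 719 cells). Inmt was detected in 46.8% of control cells, then in 2.65% (24 h), 16.6% (48 h) and 61.0% (96 h), and in 61.0% of P14 cells. An equal level in every cell would leave 66.5% of control cells without a Moxd1 UMI, and 70.8% had none. For Inmt in the control they were 50.8% and 53.2%. At 24 h both genes were too low for such a comparison. For Car3 at 48 h an equal level would leave 31.1% of cells at 0, and 42.8% were. For Car3 in the control they were 0.00763% and 0.865%, so cells differed in level there as well.

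Counted jointly, the mean number of the 4 genes detected in a cell at 5000 UMIs was 2.74 in the control, then 1.08 (24 h), 1.15 (48 h) and 2.42 (96 h), with 1.64 in P14. Cells with none of the 4 were 0.108% of the control (1 cell), 25.2% at 24 h (22.7% to 27.8%), 21.7% at 48 h (18.7% to 24.9%), 0.130% at 96 h (1 cell) and 10.9% in P14 (9.58% to 12.3%). These shares follow depth: without thinning they were 3.42% (24 h), 1.25% (48 h) and 0% (P14), and with 2 UMIs required for detection 69.7%, 57.6% and 42.0%. Cells with all 4 were 13.7% of the control and none at 24 h, where Inmt was detected in only 2.65% of cells, so few could have all 4. At 48 h, 96 h and in P14 no thinned cell had a Moxd1 UMI, so none could have all 4. Whether the genes were lost in the same cells was not tested.

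Free RNA from broken cells gives transcripts to droplets that did not make them, and its amount differed between libraries. The plateau of empty droplets, barcodes ranked after 20000 and up to 60000 by UMIs, had a mean of 1328 UMIs per droplet in the adult control, which is 7.17% of the median hepatocyte there, and 290 to 795 in the other libraries (0.818% to 3.60%). Shares in lymphocyte-like barcodes, with at least 3 genes of the T, NK or B lists, stand for cells that should lack the genes. At 1000 UMIs per cell Car3 was detected in 54.1% of lymphocyte-like barcodes of the control and in 79.6% of its hepatocytes. At 24 h the shares were 2.57% and 14.2%. Inmt at 24 h was detected in 0.857% of lymphocyte-like barcodes (0.177% to 2.48%) and 0.513% of hepatocytes (0.188% to 1.11%), which could not be told apart at this depth. Its summed level there was 2.63 CPM in lymphocyte-like barcodes, from 6 UMIs, and 6.66 in hepatocytes. In the control, Moxd1 was detected in 2.11% and 7.14%, and Inmt in 4.44% and 13.8%. Levels in the lymphocyte-like barcodes of the control were 736 CPM for Car3, 541 for Selenbp2, 51.0 for Inmt and 19.2 for Moxd1. The hepatocytes there were at 2589, 1259, 173 and 115 CPM. Selenbp2 was detected in 44.4% and 63.2% in the control and in 5.14% and 10.0% at 24 h, where its level was 48.3 CPM in lymphocyte-like barcodes and 150 in hepatocytes. Those lymphocyte-like barcodes had median depths of 5840 UMIs in the control and 4542.5 at 24 h, against 18527 and 19562 in hepatocytes. Levels of Car3 in the empty droplets moved as those in hepatocytes did, at 3020 CPM in the control, then 182 (24 h), 319 (48 h) and 2892 (96 h).

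Along the lobule Moxd1, Inmt and Car3 were higher towards the central vein in the control, whereas Selenbp2 leaned the other way. Within each library hepatocytes were ranked by the pericentral share of their zonated UMIs, from 14 genes of the central vein side and 12 of the portal side, and the lowest and highest terciles were compared. This is a ranking and not a pair of cell types, and 58 to 146 cells per library lay within 1 percentage point of a limit. In the control, Car3 was at 1968 CPM in the lowest tercile and 3370 in the highest. Moxd1 was at 85.1 and 140, and Inmt at 143 and 225. Selenbp2 differed little, with 1288 and 1187 CPM.

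At 24 h and 48 h the opposite differences of Car3 and Selenbp2 between the terciles were wider, though the ranking was not on the same scale. Genes that make up the ranking also changed in level after PHx, as given below. A wider gradient along the lobule can therefore not be read from these terciles. Its tercile limits were 11.5% and 29.2% in the control, 15.6% and 31.8% at 24 h, and 27.5% and 45.3% at 48 h. Median depths of the lowest and highest tercile also differed. They were 18583.5 and 19322.5 UMIs in the control, 20997.5 and 17237 at 24 h, and 37771 and 33189 at 48 h. Car3 was at 142 CPM in the lowest and 275 in the highest tercile at 24 h, and at 161 and 424 at 48 h. Selenbp2 was at 200 and 92.0 CPM at 24 h, and at 239 and 94.7 at 48 h, so it was 2.18-fold and 2.52-fold lower in the highest tercile. The log2 ratio of the highest over the lowest tercile for Selenbp2 was -0.12 in the control (-0.17 to -0.06) and -0.29 in P14 (-0.36 to -0.22). It was -1.12 for 24 h (-1.27 to -0.98), -1.33 for 48 h (-1.47 to -1.20) and -0.57 for 96 h (-0.65 to -0.49). Selenbp1 showed no such difference at 24 h, with 75.2 and 70.0 CPM, or at 48 h, with 63.8 and 62.6. Inmt at 24 h came from 16 UMIs in the lowest tercile and 83 in the highest, 2.30 and 14.0 CPM. Lymphocyte-like barcodes had 2.63 CPM, at a median depth of 4542.5 UMIs against 19562 in hepatocytes. The level of the lowest tercile was near this one, but the 2 cannot be compared directly, since free RNA weighs more in shallow barcodes. With free RNA subtracted, the log2 ratio of Inmt over all hepatocytes at 24 h was -4.50, as without. That value does not separate the terciles, so the part of free RNA in the lowest tercile was not tested. At 96 h the Inmt terciles were close, with 272 and 296 CPM.

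**Figure D3:**
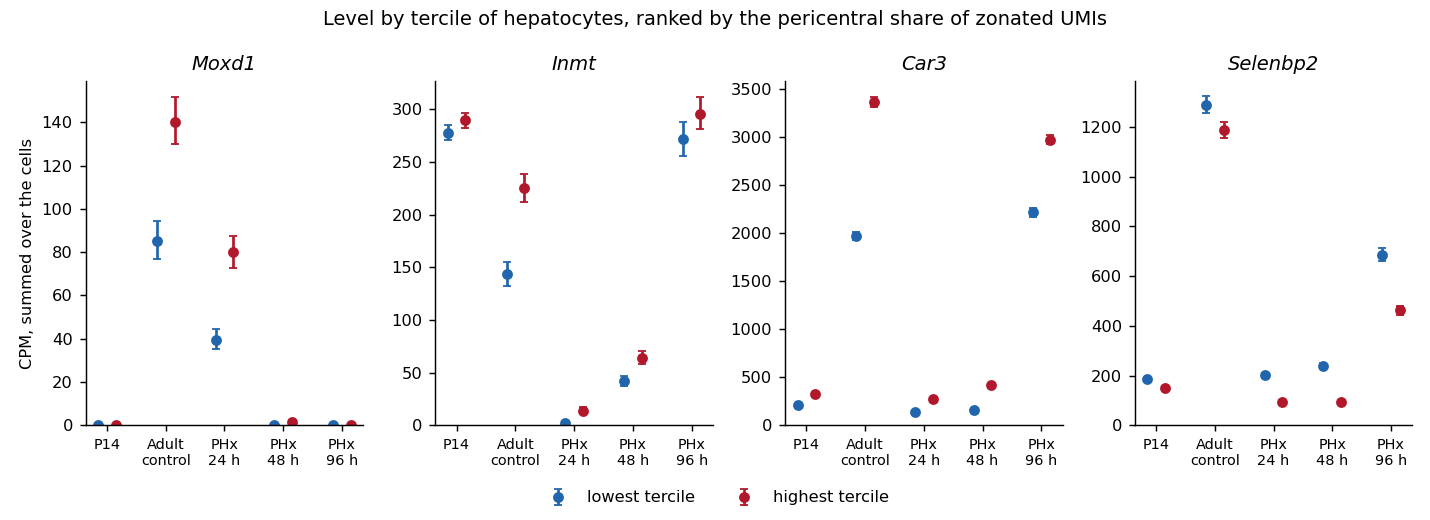
Points give the level (CPM, linear axis from 0) of each gene in the lowest and highest tercile of hepatocytes of each library, ranked by pericentral share, with exact Poisson 95% intervals. Car3 is higher in the highest tercile in every library, Selenbp2 is lower in it, and both terciles fell at 24 h and 48 h.

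The fall was present at both ends of the ranking. Each tercile was set against the same tercile of the control, whose limits differed. Car3 at 24 h had log2 ratios of -3.79 in the lowest tercile and -3.61 in the highest. Selenbp2 had -2.68 and -3.68, Moxd1 -1.09 and -0.80, and Inmt -5.45 and -3.92. At 96 h Selenbp2 remained lower in both, at -0.91 and -1.36. The zonation lists held genes that moved either way at 24 h, with median log2 ratios of -0.08 for the pericentral and -0.33 for the portal genes. Of 13 pericentral genes with enough signal 4 were at least 2-fold lower and 2 at least 2-fold higher, and of 12 portal genes 2 were lower and 1 was higher, beside 7.13% and 8.51% of all genes. Cyp2e1, a pericentral cytochrome P450, was at 2143 CPM in the control and 680 at 24 h. On the portal side Cps1, the entry enzyme of the urea cycle and the portal gene with the highest control level, was at 3366 CPM and then 5127 at 24 h, whereas the cytochrome P450 gene Cyp2f2 had the largest fall of the list at 24 h, at 1882 CPM in the control, 500.4 at 24 h and 274 at 48 h.

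Mitosis-positive cells had less Car3 and Selenbp2 than cells of the same library with no mitosis gene detected. At 24 h and 48 h both genes were low in the cells with none too. A count of 0 at 5000 UMIs does not show that a cell was outside division. Mitosis-positive cells had at least 3 of 25 mitosis genes at 5000 UMIs and were compared with cells that had 0. The 24 h library had 185 and 728 of them, the 48 h library 293 and 288, and the 96 h library 70 and 570. Car3 was at 141 CPM in mitosis-positive and 204 in the other cells at 24 h, 175 and 405 at 48 h, and 1697 and 2833 at 96 h. Selenbp2 was at 125 and 161, 130 and 183, and 403 and 606 CPM. The 2.31-fold difference of Car3 at 48 h was its widest over these times, and the cells with 0 mitosis genes were still far under the control level of 2589. Inmt was at 42.3 and 51.1 CPM at 48 h, and at 215 and 287 at 96 h. Moxd1 went the other way at 24 h, with 65.6 CPM (57.7 to 74.3) in mitosis-positive cells and 50.9 (46.9 to 55.2) in the others. Mitosis-positive cells were deeper at these times, with medians of 25246 against 18944.5 UMIs at 24 h and 42500 against 33244 at 48 h. Split by depth alone, Car3 at 48 h was at 230 CPM in the deepest tercile and 404 in the shallowest, 1.76-fold lower, and at 24 h at 185 and 219. Selenbp2 at 48 h was at 153 and 186. At 24 h it was at 146 and 149, beside 125 and 161 by mitosis genes. At 96 h the depth terciles were close, with Car3 at 2556 and 2672 CPM and Selenbp2 at 554 and 615. In P14 mitosis-positive cells were shallower, with medians of 37338 against 39759.5 UMIs, and had Car3 at 209 against 284 CPM.

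Acute phase proteins, the plasma proteins that the liver releases in inflammation, were higher at 24 h and 48 h than in the control. Of 16 acute phase genes, 14 were at least 2-fold higher at 24 h, where 8.51% of all genes were, and at 48 h 14 of the 15 with enough signal were (8.3% of all genes). Fga went from 3241 CPM to 7920 and 9909, and Hp from 3126 to 5359 and 8247. By 96 h the list's median log2 ratio was 0.06. In P14, 6 of 15 acute phase genes were at least 2-fold lower than in the control (13.8% of all genes). Another 3 were at least 2-fold higher (7.89%), and the median was -0.48. What part the acute phase response had in the levels of the 4 genes was not tested. Within libraries Car3 did not follow acute phase UMIs in 1 direction. In the tercile with most of them it was at 162 CPM against 239 at 24 h, and at 337 against 218 at 48 h. Selenbp2 also changed direction, at 158 CPM in the highest and 142 in the lowest tercile at 24 h, 124 and 203 at 48 h, and 707 and 436 at 96 h. The terciles differed in depth, with medians of 26002 in the highest and 15525 UMIs in the lowest at 24 h, and 40888 and 31756 at 48 h.

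Genes that are higher in male than in female mouse liver were low after PHx and stayed low at 96 h, and among the 4 genes Moxd1 and, less deeply, Selenbp2 were also still low then. Of 16 such genes, 13 were at least 2-fold lower at 24 h, 13 at 48 h and 11 at 96 h, beside 7.13%, 7.63% and 1.88% of all genes. Their median log2 ratios were -1.42, -2.18 and -1.80. The major urinary protein gene Mup11 was at 27298 CPM in the control, then 8270 (24 h), 2017 (48 h) and 385 (96 h), and Mup7 at 10817, 4139, 1663 and 873. Mup genes are near-identical copies, so the split between them is uncertain. Gstp1, a glutathione transferase, went the other way, with 443, 594, 1195 and 1560 CPM. In P14 all 16 were at least 2-fold lower than in the adult control, beside 13.8% of all genes. The Y-linked Ddx3y was at 128 CPM at 96 h and 112 in the control. The cause of the lower male-biased and Moxd1 transcripts at 96 h was not tested.

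**Figure D4:**
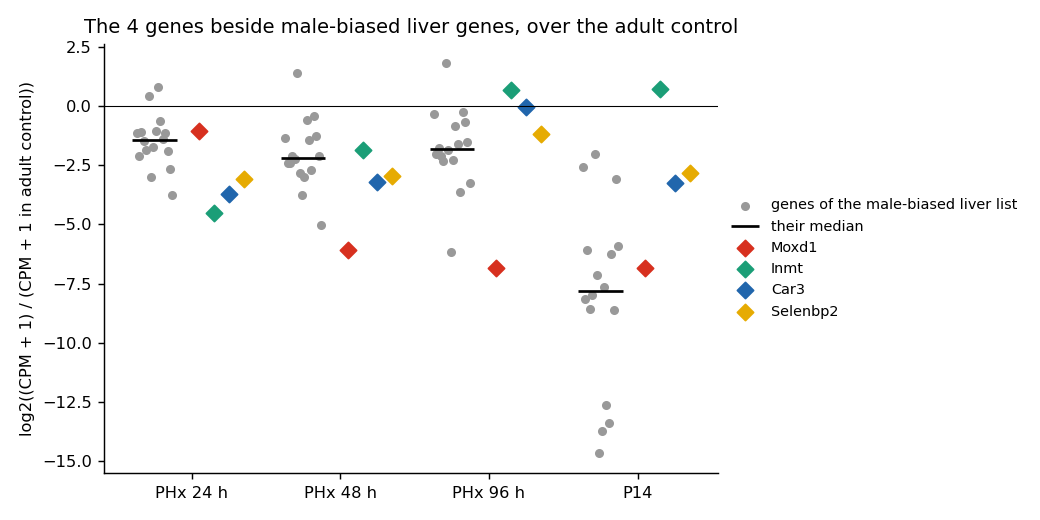
Each point is the log2((CPM + 1)/(CPM + 1)) of 1 gene in 1 library over the adult control, with grey circles for the 16 male-biased genes, a bar for their median and diamonds for the 4 genes. Moxd1 is the lowest of the 4 at 48 h, at 96 h and in P14, whereas Inmt, Car3 and Selenbp2 at 96 h lie above the median of the male-biased genes.

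Few female-biased genes had enough signal in the adults, 3 of 18 at 96 h. Abcd2, a peroxisomal transporter, was at 2.40 CPM in the control and 51.1 at 96 h, and the hepcidin gene Hamp2 at 13.9 and 157. Cyp2c40 was at 6.76 and 3.27. Of 12 genes of growth hormone signalling, the pathway that sets much of the sex bias of the liver, 7 were at least 2-fold lower at 24 h, 6 at 48 h and 1 at 96 h, beside the 7.13%, 7.63% and 1.88% of all genes. The receptor Ghr was at 596 CPM in the control, then 252 (24 h), 222 (48 h) and 495 (96 h). Igf1, a main product of the pathway, stayed between 988 and 1411 CPM in the adult libraries.

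The relatives of the 4 genes went different ways. Nnmt, which methylates nicotinamide as Inmt methylates tryptamine, was at 281 CPM in the control and 832 at 24 h, when Inmt was lowest, then 495 and 269. Gnmt, the glycine methyltransferase, was at 1329, 954, 849 and 1098, and Pnmt at 0 in all libraries. Of 15 other carbonic anhydrases, 5 had at least 5 CPM in the control or at 24 h, and 2 of these 5, Car1 and Car8, were at least 2-fold lower at 24 h, where 7.13% of all genes were. Car8 was at 90.9, 33.3, 44.5 and 96.8 CPM, a dip at 24 h and 48 h as in Car3. The mitochondrial Car5a was at 50.2, 29.2, 34.5 and 62.0, and Car14 at 56.8, 75.7, 31.7 and 65.7. Car1, which is abundant in red cells, was at 20.4, 0.564, 0.768 and 6.10, while summed erythroid markers in the same hepatocytes were at 719, 522, 762 and 325 CPM. Car2 was at 8.26, 12.5, 16.3 and 20.2. The copper monooxygenase Pam was at 1.43 CPM in the control, and Dbh and Moxd2 at 0 in all libraries.

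Profiles over the 5 libraries were compared by the root mean square difference of centred log2(CPM + 1) values, over 3378 genes with at least 50 CPM in any library. Car3 and Selenbp2 differed by 0.63. Selenbp2 was the closest of all genes to Car3, whereas Car3 was in place 34 from Selenbp2. Next came Keg1 (0.65), Mcm10 (0.69), Sult2a8 (0.71) and Dbp (0.73), a PAR bZIP clock factor that was at 152 CPM in the control, then 9.07 (24 h), 3.22 (48 h) and 119 (96 h). The closest to Selenbp2 were Klhl24 (0.41), Ugt2b1 (0.45), Keg1 (0.45), Zfp36l2 (0.46) and Gabarapl1 (0.46). Inmt lay nearest to Nrep (0.77), Serpina6 (0.83), Upp2 (0.83), Acaa1b (0.93) and Ppm1k (1.01). Moxd1 had no close profile. Its nearest were Mup18 (1.02), Mup9 (1.75), Mup16 (1.85), Socs3 (1.96) and Ugt2b38 (2.05), and Inmt at 4.33 was among the farthest genes from it. These distances are over 5 libraries only.

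Of the markers of other cell types in the hepatocyte barcodes, those of neutrophils were farthest above the control at 24 h and 48 h. Summed neutrophil markers (6 of 6 detected) were at 11.3 CPM in the control, then 102 (24 h), 189 (48 h) and 22.2 (96 h), with 27.4 in P14. Macrophage markers were highest in the control, at 8.56 CPM against 1.04 to 1.33 in the other libraries. The same held for T or NK markers, at 21.2 against 2.31 to 13.5, and for endothelial markers, at 30.3 against 13.1 to 25.4. B cell markers were at 58.0 in the control, then 29.7 (24 h), 86.1 (48 h) and 21.7 (96 h). Stellate or fibroblast markers were at 5.48 in the control, then 10.97 (24 h), 4.08 (48 h) and 11.3 (96 h), with 46.9 in P14 and Col1a1 at 0 in all libraries. Cholangiocyte markers were at 18.0 in the control, then 33.9 (24 h), 30.9 (48 h) and 32.4 (96 h). Of those 6 markers 1 was detected in the control and 2 or 3 after PHx, with Krt19 and Cldn4 at 0 in all 4 adult libraries, and the 1 with enough signal stayed within 2-fold of the control after PHx. Removing barcodes with 3 or more markers of such a type left 905 of 925 control cells but 461 of 719 at 48 h, and the count of genes at least 4-fold lower at 3, 3 and 1. The part of these cells in the levels was otherwise not tested.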

How the data were processed

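Droplet counts from 5 liver libraries were used. The authors deposited, for each library, a sparse matrix of UMI counts per gene and barcode, whole numbers without normalization and with empty droplets included. Per the submitters' processing notes, bcl2fastq 2.17.1.14, Cell Ranger, Seurat 3.1 and mm10 were used. The software version named per the file headers is 3.0.2. The annotation and the handling of reads that fit 2 genes are not given in the sources used here. Of 31053 gene identifiers, 30934 matched GENCODE M21 (GRCm38), from which positions were taken. Promoters came from RefSeq (GRCm38.p6), whose table held 3 of the 4 genes.

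The 4 genes and all gene lists were chosen with earlier results of these data known. Genes were named by a rule: the 4 members, their relatives and sex-linked genes, from each other list at most 4 genes, those with the highest control level, the largest movers of the sex-biased lists at 96 h, and the 5 nearest profiles of each member.

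UMIs were summed over hepatocytes and divided by the total without the 13 mitochondrial genes (CPM). Ratios used a pseudocount of 1 CPM, which understates falls of low genes, and fold changes in the text used none. Genes under 5 CPM in both libraries were left out of counts over all genes. Cells were thinned to 5000 UMIs (1000 beside lymphocyte-like barcodes, which had under 10% mitochondrial UMIs), with a fixed seed. Doublets were not removed from the reported values. Their removal by Scrublet score (scanpy 1.11.5) was an alternative. Calculations used Python 3.11.15, numpy 2.4.6, scipy 1.17.1 and pandas 2.3.3. The ratio, interval and thinning code was tested on simulated data.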

Additional observations from a re-analysis of the deposited data

How the results depend on the processing

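With 1 library per group no replicate could be left out, and no difference could be checked against the spread between animals. No paired analysis was possible because each group is 1 library. Under the 13 alternatives that apply to it, the number of the 4 genes at least 4-fold lower than the adult control was 3 at 24 h, 1 at 96 h and 3 in P14. At 48 h it was 3 under 12 of them and 4 in barcodes under 10% mitochondrial UMIs, an alternative added after seeing the data. The share of all genes past this fold was higher under these settings: 17.7% (24 h) and 28.1% (48 h) with a marker share of at least 5%, 6.84%, 9.13%, 14.8% and 7.63% (24 h, 48 h, 96 h and P14) with 10% to 15% mitochondrial UMIs, and 9.29%, 6.70% and 1.49% (24 h, 48 h and 96 h) under 10%, so the counts there stand against a wider background.

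Medians of the 4 log2 ratios that left a reference range are given next. The range ran from the median of the 4 lower counting limits to that of the 4 upper ones. Those limits came from ratios without pseudocount, and the range was widened where needed to hold the reported value. It is not a counting interval of the median itself. Scaling by TMM factors gave -2.99 (48 h), -0.62 (96 h) and -2.76 (P14), mitochondrial genes in the total gave -2.96 (P14), and a pseudocount of 10 CPM gave -3.22 (24 h), -3.02 (48 h) and -3.0 (P14). The mean over cells gave -2.99 (48 h) and a Car3 ratio of 0.041 (96 h), opposite in sign to the reported -0.01. Subtracting free RNA gave -3.34 (24 h), -3.01 (48 h), -0.54 (96 h) and -2.99 (P14). Barcodes of 10% to 15% mitochondrial UMIs, of which the control had 7, gave -2.94 (24 h), -2.79 (48 h), -0.39 (96 h) and -2.98 (P14), with Car3 at 0.14 (96 h). Barcodes of under 30% gave -0.37 (96 h) and -3.18 (P14), with Car3 at 0.074 (96 h). Barcodes of under 10% alone, 150 of them in the control, gave -4.19 (24 h), -3.73 (48 h), -0.98 (96 h) and -3.68 (P14), and Inmt in P14 was then below the control, at -0.42, so its direction rests on the mitochondrial limits. The medians of all genes in these barcodes were -0.69 (24 h), -0.62 (48 h), -0.45 (96 h) and -0.055 (P14). A marker share of at least 5%, which left 47 control cells, 6 of 24 h and 2 of 48 h, gave -3.12 (24 h), -3.71 (48 h), -0.32 (96 h) and -2.78 (P14), with Car3 at 0.68 (96 h). Apart from these, the cause was not tested.

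Shares of cells with none of the 4 genes depended on depth by construction. Without thinning they were 0% (P14), 0% (control), 3.42% (24 h) and 1.25% (48 h), and with 2 UMIs required 42.0% (P14), 69.7% (24 h), 57.6% (48 h) and 1.17% (96 h). The control was at 0% also with 10% to 15% and under 30% mitochondrial UMIs, under 10% alone, at least 10000 UMIs, a marker share of 5% and the highest 6% of Scrublet scores removed. In P14 the share was 7.69% (10% to 15% mitochondrial UMIs), 9.32% (10000 UMIs) and 8.38% (Scrublet). For 24 h it was 16.7% (10% to 15%), 15.5% (under 10%) and 50% (marker share, 6 cells). For 48 h it was 9.09% (10% to 15%), 17.8% (under 30%), 9.09% (under 10%) and 50% (marker share, 2 cells). For 96 h it was 5.88% (10% to 15%) and 0% (10000 UMIs).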
